A study of Mus musculus with 2 samples.

Results

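The regions described here were the 2000 strongest accessible regions of chromosomes 1 to 19 in mouse common myeloid progenitors, out of 65789 regions in all. They were chosen by the peak signal that the authors deposited, so that signal is given as a description and supports no comparison. The conservative list made from both replicates gave 99669 peaks on these chromosomes. Peaks that overlapped were joined, each resulting region took the signal of its highest peak, and the regions were ranked. What the ranking did not use was then read for each region. This was where it lay, its nearest genes, the letters at its summit and whether its sequence occurred elsewhere in the genome. Its signal in each replicate's own list was read too. That signal is not independent of the ranking, since the ranked list was made from both replicates.

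Open chromatin was assayed by ATAC-seq, a method in which the Tn5 transposase inserts sequencing adapters into DNA that is not wrapped tightly in nucleosomes. The labels name C57BL/6J mice, male, 5 to 6 weeks old, and primary cells used at 50000 per library. There was 1 group of 2 libraries, biological replicates 1 and 2, with no treatment, genotype or second cell type beside it. Both libraries have the same donor label, so the spread between them may be technical, and the labels name sequencing instruments for replicate 1 and none for replicate 2. Peak lists carry no read counts, and the depth of each library is unknown. The cell label was set against gene lists: 17 of 18 stem and progenitor regulator genes (such as Kit, Gata2 and Runx1) had a region of the list at a promoter, against 62% of all protein-coding genes. The count was 12 of 13 for erythroid, 11 of 15 for granulocyte-monocyte progenitor, 9 of 12 for megakaryocyte and 7 of 11 for macrophage genes, 5 of 10 for stromal and endothelial, 4 of 9 for NK cell, 5 of 12 for T cell and 4 of 12 for B cell genes, 4 of 10 for basophil, eosinophil and mast cell genes, 2 of 18 for genes of other tissues and 1 of 10 for mature neutrophil genes.

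Common myeloid progenitors are bone marrow cells that give rise to granulocytes, monocytes, red cells and platelets. In most cell types the promoters of genes needed by every cell are open whether or not the cell is specialised, whereas distal elements differ more between cell types. The CCAAT box is the sequence bound by NF-Y, a trimeric factor that acts close to transcription starts, and ETS factors such as GABPA bind a GGAA core in many promoters of housekeeping genes. CTCF binds insulators and loop anchors, and REST binds a long element near neuronal genes, which it silences outside the nervous system. Copies of mitochondrial DNA lie in the nuclear chromosomes, and open-chromatin libraries usually contain many fragments of mitochondrial DNA itself.

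The sequences below show the features that the results turn on, read from the GRCm38.p6 assembly, which is the build of the lists (mm10), 5′ to 3′. The first pair are 101-bp windows centred on summits. One is at Gm5141 (chr13:62785782-62785882, minus strand), the strongest promoter region without a mitochondrial match or near-identical copy as defined below. The other is at the Zbed5 promoter (chr5:129895628-129895728, plus strand). Capitals mark CCAAT on either strand.
Gm5141: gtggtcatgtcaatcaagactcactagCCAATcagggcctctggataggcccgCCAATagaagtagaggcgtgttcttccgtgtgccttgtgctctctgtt
Zbed5: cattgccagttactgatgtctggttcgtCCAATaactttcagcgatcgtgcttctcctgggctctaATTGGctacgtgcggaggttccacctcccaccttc
The next window is at the strongest promoter region with the ETS consensus, at Zfp938 (chr10:82241283-82241383, minus strand), with that consensus in capitals. It also holds a CCAAT, printed in lower case.
Zfp938: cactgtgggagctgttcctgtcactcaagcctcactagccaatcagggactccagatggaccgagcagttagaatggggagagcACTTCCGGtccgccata
The following pair are the summit windows of the Snap25 (chr2:136714264-136714364, plus strand) and Glra1 (chr11:55607882-55607982, plus strand) regions, with the best match to the REST element in capitals.
Snap25: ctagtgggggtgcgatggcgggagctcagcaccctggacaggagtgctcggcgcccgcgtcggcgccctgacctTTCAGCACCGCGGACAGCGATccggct
Glra1: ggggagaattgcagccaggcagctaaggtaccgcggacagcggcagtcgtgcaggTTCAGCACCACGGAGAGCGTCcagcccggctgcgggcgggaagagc
The strongest region of all, on chromosome 2 (chr2:69355472-69355731, plus strand), is printed whole, with its match to the mitochondrial chromosome in capitals.
Rank 1: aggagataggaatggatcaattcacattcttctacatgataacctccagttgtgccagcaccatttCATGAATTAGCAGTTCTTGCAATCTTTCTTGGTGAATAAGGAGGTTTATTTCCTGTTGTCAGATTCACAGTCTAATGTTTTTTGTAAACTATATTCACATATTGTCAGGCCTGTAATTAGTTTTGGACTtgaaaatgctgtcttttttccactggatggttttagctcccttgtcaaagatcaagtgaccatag
The last pair are the third-ranked region (chr16:18533130-18533394, plus strand) and the region ranked 48 (chr7:57881122-57881373, plus strand), both printed whole, with the stretch that occurs letter for letter elsewhere in the genome in capitals.
Rank 3: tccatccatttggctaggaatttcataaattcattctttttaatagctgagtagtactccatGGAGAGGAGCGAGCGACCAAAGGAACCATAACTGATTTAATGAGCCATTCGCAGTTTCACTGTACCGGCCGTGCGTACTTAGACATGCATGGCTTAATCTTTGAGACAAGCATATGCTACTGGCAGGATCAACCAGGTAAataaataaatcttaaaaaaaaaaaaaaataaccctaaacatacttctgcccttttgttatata
Rank 48: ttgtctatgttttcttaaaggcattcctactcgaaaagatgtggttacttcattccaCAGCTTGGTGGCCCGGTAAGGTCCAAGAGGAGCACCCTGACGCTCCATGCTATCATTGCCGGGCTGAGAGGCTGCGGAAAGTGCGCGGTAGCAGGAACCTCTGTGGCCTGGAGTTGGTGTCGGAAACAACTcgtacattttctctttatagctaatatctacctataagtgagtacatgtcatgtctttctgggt

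The signal that chose the regions ran from 16.2 to 45.6, with a median of 17.4 and quartiles of 16.7 and 18.6, in units whose scale the files do not state. The other 63789 regions had a median of 8.20, and the 2000 regions ranked just below ran from 14.7 to 16.2. Few regions stood far above the rest: 1 was at 40 or more, 6 at 30 or more, 30 at 25 or more and 222 at 20 or more. The cut at rank 2000 fell in a dense part of the ranking. The last region inside it, the promoter of Armc9, had a signal of 16.163 and the first outside it, the promoter of Syn2, had 16.160.

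**Figure D1:**
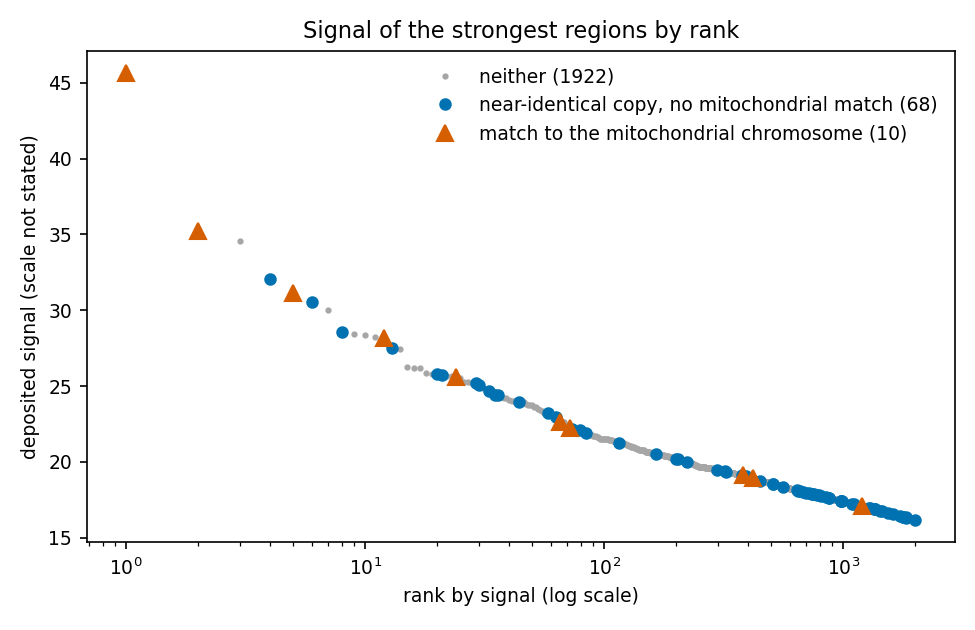
Deposited signal (vertical axis, scale not stated) against rank (horizontal axis, log scale) for the 2000 strongest regions, with triangles for the 10 regions that match the mitochondrial chromosome and blue points for regions with a near-identical copy elsewhere and no such match. Ranks 1 and 2 are both mitochondrial matches, and most other regions lie between 16.2 and 20.

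Members were wider than other regions. Their median width was 676 bp (quartiles 524 and 836 bp), that of other regions was 492 bp, and their median −log10 p was 134.5 (in the authors' list) against 42.1. Width and p come from the same peaks as the signal, so these are descriptions. Because wide regions meet promoters more often, shares below are set beside those of other regions of like width, averaged over 10 width classes with the weights of the strongest regions. Intervals are 95% intervals that cover counting error over regions only; regions are not independent replicates, and no test was made.

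Both replicates held these regions. All 2000 met a region of replicate 1's own thresholded list and 1989 met one of replicate 2's. All 2000 also met regions of both replicates' lists of pseudoreplicated peaks. The ranked list was made from both replicates, so the choice of regions favoured their presence in these lists. The share found among all regions is not given here, so these counts are a description. In replicate 1 the signal had a median of 15.7 (11.6 to 39.5) and in replicate 2 a median of 16.04 (10.8 to 42.3). The ranges thus overlapped nearly completely. The log2 ratio of replicate 2 to replicate 1 had a median of 0.03 and an SD of 0.16 over the 1989 regions, and 1156 of them were higher in replicate 2. Promoter members without a copy were shifted slightly further, with a median of 0.06 and 478 of 695 higher in replicate 2, than distal members, with 0.01 and 642 of 1216.

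**Figure D2:**
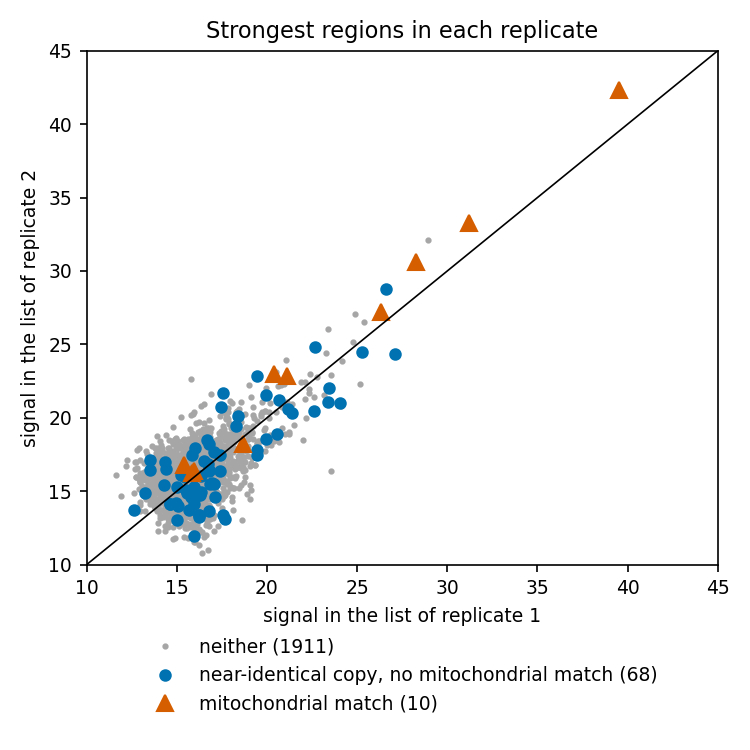
Signal in the list of replicate 2 (vertical axis) against replicate 1 (horizontal axis), 1 point for each of the 1989 regions found in both, with a line of equal signal. The regions form a cloud around the line with an SD of 0.16 on the log2 scale, and the mitochondrial matches (triangles) lie mostly above it.

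Rank within so narrow a range was less stable than presence, which the choice of regions had favoured. Of the strongest regions, 1670 (83.5%) were also among the 2000 strongest of replicate 1's own list and 1463 (73.2%) among the 2000 strongest of replicate 2's. Both lists held 1238 (61.9%) of them and neither held 105 (5.25%). Set against each other, the 2000 strongest of the 2 replicates had 1286 regions (64.3% of each) in common. The series ranking contains both libraries, so the first shares are not independent of it. Across the 1989 regions Spearman's rho between replicates was 0.392 and Pearson's r was 0.646, over regions that share their libraries and were selected on a joint signal.

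Matches to mitochondrial DNA gathered at the top of the ranking. A match of at least 80% identity over at least 100 bp was found in 10 of the 2000 regions (0.5%, Wilson 95% interval 0.272 to 0.918) and in 16 of the other 63789. Over all regions the share was 0.0395%, and among other regions of like width it was 0.0181%. Of the 10, 7 ranked in the first 100 (7 of 100, 3.43 to 13.8%), 2 between 101 and 500 and 1 at rank 1196.

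The strongest region, between genes on chromosome 2 near Abcb11, had a signal of 39.5 in replicate 1 and 42.3 in replicate 2, and 129 of its 260 bp were identical to mitochondrial positions 11514 to 11642, over ND4 and the tRNA genes TrnH and TrnS2. The second, on chromosome 6 (chr6:9889880-9890223), had 31.2 and 33.3, and 310 bp of it matched the D-loop, the control region of the mitochondrial genome, at 95.5% identity. The fifth (chr5:60042657-60043142), with 28.3 and 30.6, matched 383 bp over ND2 and neighbouring tRNA genes at 97.9%. The first of these lay 12985 bp upstream of the Abcb11 start, and the other two lay more than 100 kb from any protein-coding start. The region ranked 12 (chr12:97061373-97061851) had 26.3 and 27.2 and matched the D-loop over 365 bp at 99.7%. The region ranked 24 (chr6:79818050-79818414), at the predicted gene Gm20594, had 21.1 and 22.8 and matched 298 bp of the large ribosomal RNA gene mt-Rnr2 at 90.6%. In 9 of the 10 the signal was higher in replicate 2, with a median log2 ratio of 0.10. How many of the reads at these loci came from mitochondrial DNA was not tested, since the lists hold no reads.

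Near-identical copies were the second class of repeated sequence. A second place in the genome with at least 95% identity over at least 80% of the region was found for 69 of the 2000 regions (3.45%, 2.74 to 4.34%), against 1.24% of other regions of like width and 1.38% of all regions. The difference was 2.21 percentage points (1.41 to 3.02). For 56 of the 69 the best copy was on the same chromosome, for 67 it was itself a region of the list, and for 45 it was another of the 2000. Promoters made up 20 of the 69. For 15 of the 69, of which 9 were promoters, the nearest gene was a zinc-finger gene named Zfp. Over all members a Zfp gene was nearest for 8.65% of the 717 promoter regions and 2.34% of the 1283 distal ones. The counts within the 69 are descriptions and were not set against other copied regions. The share of regions with a near-identical copy was 17% in ranks 1 to 100. It was 1.8% in ranks 1001 to 2000 and 1.55% in ranks 2001 to 4000.

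The strongest copied regions belonged to 1 family on chromosome 8. Its 5 members ranked 4, 6, 8, 13 and 36, each with 4 near-identical copies, in pseudogene-rich sequence near Gm15319 and Gm21119. The region ranked 4 (chr8:20424434-20425000) had a signal of 26.6 in replicate 1 and 28.8 in replicate 2, that ranked 6 had 27.1 and 24.3, and that ranked 8 had 25.3 and 24.5. Neither replicate was higher throughout the family. The promoter of Platr25 on chromosome 13, ranked 20 with 24.1 and 20.996, was 96.6% identical to sequence at the Gm5141 promoter printed above. Over the 69 regions, 28 were higher in replicate 2 and the median log2 ratio was -0.05. A read that fits several copies equally well can be placed at any of them or dropped, and which of these was done is not given in the sources used here.

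Shorter identical stretches formed a further class. In 121 of the 2000 regions (6.05%, 5.09 to 7.18) a stretch of at least 100 bp occurred letter for letter elsewhere, against 2.11% of other regions of like width and 2.13% of all regions, a difference of 3.94 points (2.89 to 4.997). Of the 121, 5 were mitochondrial matches, 67 had a near-identical copy, and 49 were neither. Among regions with neither, 2.55% of the strongest held such a stretch against 0.969% at like width, a difference of 1.58 points (0.869 to 2.29). The third-ranked region, in an intron of Gnb1l, held a stretch and had neither a match nor a copy. Its signal was 28.9 in replicate 1 and 32.1 in replicate 2, and 140 of its 265 bp were identical to chr17:39846352-39846491, which GENCODE annotates as a ribosomal RNA gene and which held no peak. The capitals in the sequence printed for it are therefore ribosomal RNA sequence, set within unrelated letters. The region ranked 48, at the processed pseudogene Gm5596, shared 131 bp with the start of Depdc1a on chromosome 3 (chr3:159495436-159495566). The Depdc1a promoter was itself a member, at rank 596 with a signal of 18.3, against 23.8 at the pseudogene. A processed pseudogene is a reverse-transcribed copy of a messenger RNA and can hold the sequence next to its parent's start. Whether the shared sequence bears on the signal at the pseudogene was not tested.

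Among the 49, the other place lay in a peak for 39 and within 1 kb of a protein-coding start for 24, with 23 doing both; these counts describe the 49 and were not set against other regions. Of 7 whose summit lay within 1 kb of a processed pseudogene start, 6 had their other place in a peak. Over all distal members, 28 of 1283 lay within 1 kb of a processed pseudogene start, 2.18% against 0.613% of other distal regions of like width, a difference of 1.57 points (0.766 to 2.37). For lincRNA starts the difference was 0.214 points (-0.570 to 0.998), an interval that includes 0. Among members, an identical stretch was most frequent in narrow ones: of the 37 under 300 bp wide, 10 held one and 9 ranked in the first 100. In wider members the share ranged from 4.491% (500 to 700 bp wide) to 7.784% (900 bp or wider). The share among other regions under 300 bp was not computed. Whether narrow regions in general hold such stretches as often was therefore not tested.

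The strongest regions lay at promoters and between genes more often than regions of like width, and less often within introns. A summit within 1 kb of a protein-coding start was found for 717 of 2000 (35.9%, 33.8 to 37.98), against 28.3% of other regions of like width, a difference of 7.58 points (5.44 to 9.73); over all regions the share was 21.7%. Introns held 432 (21.6%) against 33.3%, a difference of -11.7 points (-13.5 to -9.80). Intergenic regions made up 816 (40.8%) against 35.7%, a difference of 5.09 points (2.89 to 7.29), and 296 (14.8%) lay more than 100 kb from any start, against 10.7%. Without the 78 regions that match mitochondrial DNA or have a near-identical copy, the promoter difference was 7.81 points (5.62 to 9.998), the intergenic difference 4.47 points (2.23 to 6.70) and the intron difference -11.4 (-13.3 to -9.44). The promoter share depended on the ranking used: among the 2000 regions with the highest −log10 p it was 83.7%.

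The promoter share did not follow the rank in 1 direction. It was 18% among ranks 1 to 100, where 64% of regions were intergenic, 29.3% among ranks 101 to 500, 35.4% among 501 to 1000 and 40.5% among 1001 to 2000. Below the cut it was 36.8% of ranks 2001 to 4000 and then lower in each band, to 17.95% of the last. The first 100 were narrower: their median width was 566 bp, and that of ranks 1001 to 2000 was 697.5 bp.

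**Figure D3:**
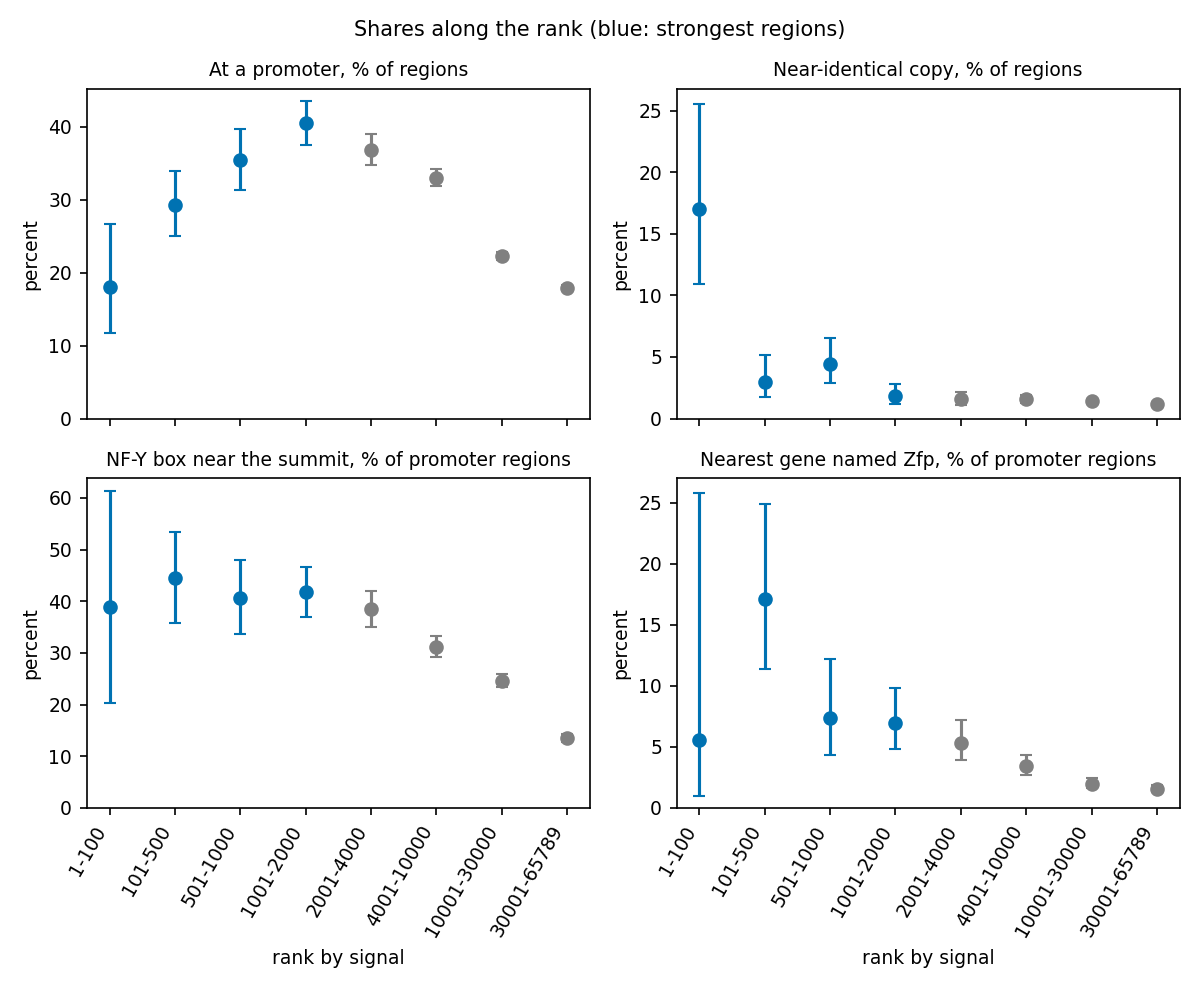
Percent of regions with 4 features (vertical axes) in 8 bands of rank (horizontal axis), with 95% Wilson intervals; blue bands are the 2000 strongest regions. The promoter share is highest in ranks 1001 to 2000, copies are concentrated in ranks 1 to 100, and the NF-Y box (CCAAT) at promoters falls from 38.5% in ranks 2001 to 4000 to 13.5% in the last band.

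Strong promoter regions were centred close to the start. Of the 717, 607 had their summit within 100 bp of it (84.7%, 81.8 to 87.1), against 60.3% of other promoter regions of like width, a difference of 24.4 points (21.6 to 27.2). The median position was 32 bp upstream, with quartiles of 67 and 9 bp upstream, whereas other promoter regions had quartiles of 105 bp upstream and 23 bp downstream around a median of 34 bp upstream. Pairs of opposed protein-coding starts were about equally frequent, 8.37% against 8.98%, a difference of -0.611 points (-2.72 to 1.50).

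CpG-rich sequence, defined by a GC content of at least 50% and an observed over expected CpG ratio of at least 0.6 in the 200 bp around the summit, was found in 651 of 2000 (32.6%), against 23.97% of other regions of like width and 17.9% of all regions. The difference was 8.59 points (6.49 to 10.7). Within promoters it was 4.85 points (75.9% against 71.0%) and within distal regions 2.96 points (8.34% against 5.38%). The first 100 ranks differed from the rest here too: 8 of 18 promoter regions there were CpG-rich, against 79.8% in ranks 1001 to 2000.

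Of the motifs searched, the CCAAT box differed most between strong and other promoters in percentage points; rarer motifs described below differed more as a ratio. CCAAT on either strand within 50 bp of the summit was present in 300 of 717 (41.8%, 38.3 to 45.5), against 22.5% of other promoter regions of like width, a difference of 19.3 points (15.6 to 23.1); over all promoter regions the share was 22.1%. At least 2 boxes, as in the Gm5141 and Zbed5 windows printed above, were present in 97 (13.5%) against 6.00%. The difference was seen in promoters of both base compositions, 16.2 points (11.9 to 20.4) in CpG-rich ones and 27.9 points (20.3 to 35.5) in the others. It was 18.9 points (15.1 to 22.6) without mitochondrial matches and copies. Matches lay within 25 bp of the summit in 62.8% of 406 cases in strong promoters and in 58.7% of 3711 in others.

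The ETS consensus CCGGAAGT, searched on both strands, was present in 63 strong promoter regions (8.79%, 6.93 to 11.1) against 4.38%, a difference of 4.41 points (2.29 to 6.53); over all promoter regions the share was 3.82%. The overlapping form ACCGGAAG gave 7.53% against 2.38%, and 2.38% of all promoter regions hold it. The element of ZNF143, an activator of small nuclear RNA and other promoters, was rare but more frequent, 8 regions (1.12%) against 0.304%, a difference of 0.812 points (0.0337 to 1.59), with 0.2935% of all promoter regions holding it. Some other promoter elements were less frequent in the strong promoters. The SP box GGGCGGG was in 21.6% against 25.7% (-4.03 points, -7.18 to -0.884; 23.4% of all promoter regions). The NRF1 element was in only 2 regions, 0.279% (Wilson 0.0765 to 1.01) against 0.764% at like width and 0.587% of all promoter regions. That interval includes both shares. The E-box CAGCTG, which TAL1 partners bind, was in 3.21% against 5.74% (5.78% of all promoter regions). A match states that the letters are present, not that a factor was bound.

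**Figure D4:**
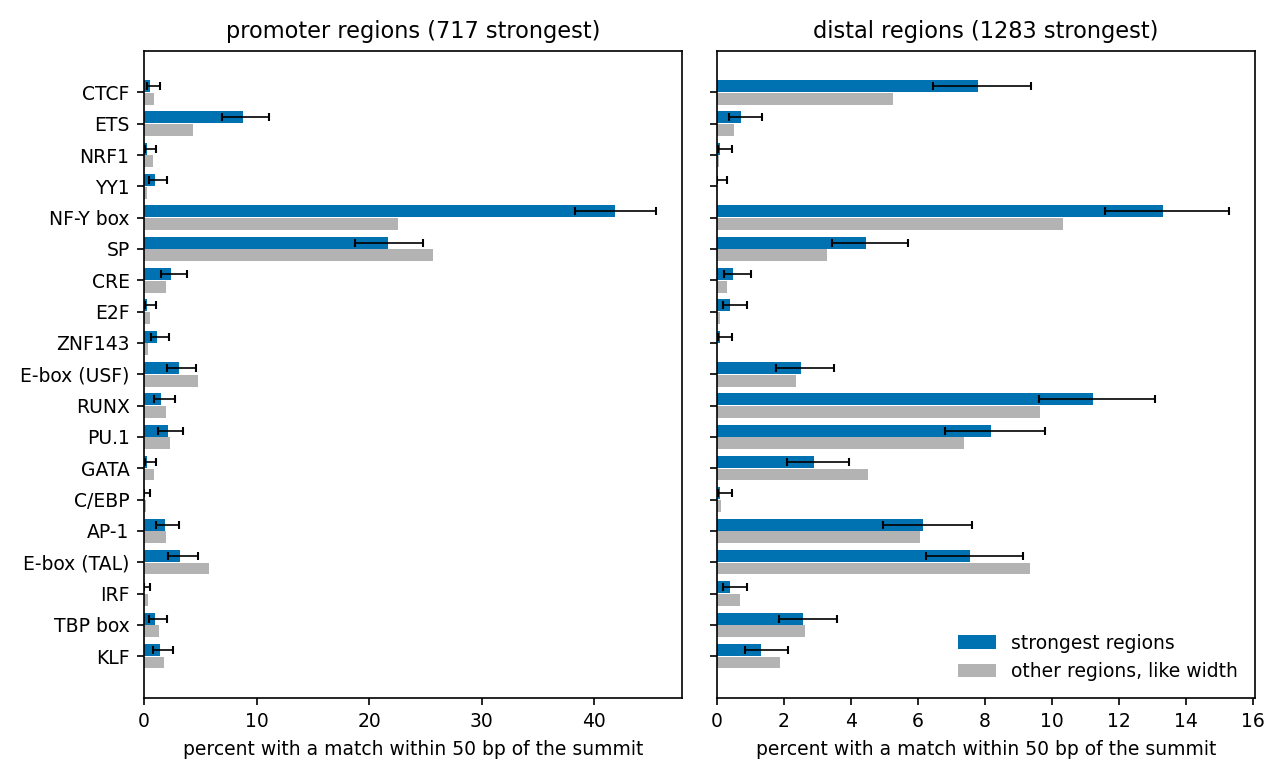
Percent of regions with a match within 50 bp of the summit (horizontal axes) for 19 motifs, in promoter and distal regions; blue bars are the strongest regions with 95% Wilson intervals and grey bars other regions of like width. The NF-Y box (CCAAT) and ETS stand out at promoters, at 41.8% and 8.79%.

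Among the 1283 distal members the differences were smaller. The CTCF consensus was present in 100 (7.79%, 6.45 to 9.39), against 5.25% of other distal regions of like width, a difference of 2.54 points (1.06 to 4.03). The share over all distal regions was 7.36%, so the members were near the overall share and above it only at like width; without width classes the difference was 0.443 points and its interval included 0. It also included 0 with 1000 regions (0.8095 points), in replicate 1's own list (1.193 points) and in replicate 2's (1.224 points). CCAAT was present in 171 distal members (13.3% against 10.3%, 3.00 points, 1.11 to 4.89; 10.6% of all distal regions). The 82 distal regions of ranks 1 to 100 had it in 24.4% (16.4 to 34.7), against 13.1% in ranks 101 to 500.

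Motifs of blood factors differed little or were less frequent in the strongest distal regions. The RUNX motif TGTGGTT was present in 11.2% against 9.64% (1.59 points, -0.168 to 3.34; 8.695% of all distal regions) and the PU.1 motif GAGGAAGT in 8.18% against 7.38% (0.805 points, -0.721 to 2.33; 6.93% of all). RUNX1 and PU.1 are regulators of blood progenitors and of myeloid cells. Among distal regions that were not CpG-rich the RUNX difference was 2.11 points (0.217 to 4.01). The motif AGATAAG of GATA factors, which direct red cell and megakaryocyte genes, was less frequent, 37 regions or 2.88% against 4.50% (-1.62 points, -2.56 to -0.676; 3.73% of all). CAGCTG was also less frequent, 7.56% against 9.35% (-1.79 points, -3.27 to -0.310; 8.87% of all).

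A small group of strong regions held the REST element. With up to 3 mismatches over its 21 positions, a match lay within 50 bp of the summit in 15 members, a setting chosen after no exact match was found in any of them. Of these, 5 were promoter regions (0.697% against 0.221% at like width, a difference of 0.477 points, -0.138 to 1.09) and 10 were distal (0.779% against 0.248%, 0.531 points, 0.0476 to 1.01). Over all regions the shares were 0.370% at promoters and 0.398% at distal regions. The nearest genes of the first 4 in rank were Xkr6, Erich1, Snap25, a protein of synaptic vesicle fusion, and Glra1, a glycine receptor subunit. The matches with the fewest mismatches were nearest to Chgb, a secretory granule protein, and Kcnk9, a potassium channel.

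The Snap25 region, ranked 39 and centred 836 bp downstream of a start, had a signal of 22.2 in replicate 1 and 19.97 in replicate 2. The Glra1 region, ranked 43 at 111 bp upstream, had 21 and 18.9. Both matched the REST element with 2 mismatches, shown in capitals above. Chgb (rank 589; 17.4 and 16.99) and Kcnk9 (rank 980; 14.3 and 16.7) matched it with 1 mismatch. Replicate 1 was the higher of the pair in 3 of these 4 regions and replicate 2 in that of Kcnk9. The remaining 11 ranked between 26 and 1907.

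The strongest promoter regions without a mitochondrial match or near-identical copy were led by neighbouring genes of chromosome 13. Those at Gm5141 and 6720489N17Rik held a stretch, of 210 and 104 bp, that occurs letter for letter elsewhere. Gm5141, ranked 16, had a signal of 23.2 in replicate 1 and 21.6 in replicate 2. 6720489N17Rik, ranked 17, had 23.5 and 22.9, and Gm49359, ranked 52, had 21.1 in both. These windows held 2, 2 and 1 CCAAT, and stretches of their sequence recur nearby: 51.8%, 46.1% and 29.4% of each region lay in 31-base words found more than once in the genome. Smn1, which encodes the survival of motor neuron protein used in spliceosome assembly, ranked 27 with 22.1 and 22.4. Tph2, the tryptophan hydroxylase of serotonin neurons, ranked 37 with 22.1 and 21.3.

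Snap25 and Glra1 followed at ranks 39 and 43. Zbbx ranked 74 with 20.2 in replicate 1 and 18.2 in replicate 2, and Zbed5, a gene derived from a transposase, ranked 75 with 20.2 and 20.995. The spread between replicates exceeded the spacing of these ranks. The 10 strongest promoter regions without a mitochondrial match or near-identical copy spanned only 22.2 to 26.2 in the series signal.

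The strongest distal regions without a mitochondrial match or near-identical copy lay near genes of several kinds. Those ranked 3, 10 and 18 held an identical stretch of at least 100 bp elsewhere. A Zfp gene was nearest for 3 of the first 10; over all 1283 distal members it was 30 (2.34%), against 1.51% at like width and 1.50% of all distal regions, a difference of 0.829 points whose interval included 0 (-0.00741 to 1.67). After the third-ranked region described above came one 2413 bp upstream of Gm13283 (rank 7, chr4:88757558-88757853), with 24.9 in replicate 1 and 27.1 in replicate 2. One 5544 bp upstream of Sfpq, which encodes an RNA-binding protein of nuclear paraspeckles, ranked 9 (chr4:127015625-127016110) with 24.7 and 25.1. Regions nearest to Zfp960 ranked 10 and 18, with 25.4 and 26.5, and with 23.3 and 24.4, the latter 112637 bp from its start. That nearest to Zfp677 ranked 11 with 25.1 and 22.3. Further regions of the first 10 lay near Dtwd2 (rank 14), Tram1 (rank 15; 24.1 and 23.8), 6720489N17Rik (rank 19; 24.1 and 20.8) and Herpud2 (rank 22; 21.1 and 23.96).

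Genes with a strongest region at a promoter numbered 790 of 20698 protein-coding symbols, or 3.82%, and 934 (4.51%) had a distal one within 100 kb as nearest gene. Some gene groups were well above that share. Mitochondrial ribosomal protein genes, which build the ribosome inside mitochondria, had one at 16 of 78 promoters (20.5%, 13.04 to 30.8), led by Mrps27 (rank 387), Mrps35 (rank 530) and Mrps30 (rank 598). Proteasome genes, which encode the cell's main protein-degrading complex, had one at 8 of 49 (16.3%, 8.51 to 29.04), led by Psmd6 (rank 621). Respiratory chain genes had one at 10 of 86 (11.6%, 6.44 to 20.1), led by Ndufa12 (rank 325), a subunit of complex I. Counted by gene, Mrpl46 and Mrps11 enter through the same region, at rank 1887. Counted by region, a mitochondrial ribosomal protein gene was nearest for 13 of 717 strong promoter regions. At like width the difference over regions was 1.31 points (0.325 to 2.30) for these genes. It was 0.807 points (0.0298 to 1.59) for proteasome genes. That for respiratory chain genes was 0.763 points with an interval that included 0 (-0.0642 to 1.59).

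Genes named Zfp, many of them zinc-finger proteins of a kind that represses transposable elements, had a strongest region at 62 of 385 promoters (16.1%, 12.8 to 20.1). Zfp97 led at rank 35, followed by Zfp418 (rank 132), Zfp560 (rank 169), Zfp738 (rank 176) and Zfp932 (rank 200). Counted over regions, a Zfp gene was nearest for 8.65% of strong promoter regions against 2.32% of other promoter regions of like width, a difference of 6.33 points (4.25 to 8.41), and 5.36 points (3.36 to 7.35) without copies. Of these 62 regions, 36 (58.1%, 45.7 to 69.5) held CCAAT, against 26.0% of other Zfp promoter regions of like width. Copies were also frequent among them, 9 of 62 (14.5%) against 3.88%, and their part in the signal of this group was not tested.

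Other groups that every cell uses had intervals that included the overall 3.82%. Translation factor genes had a strongest region at 5 of 65 promoters (7.69%, 3.33 to 16.8). Cytosolic ribosomal protein genes had a strongest region at 3 of 80 promoters (3.75%, 1.28 to 10.5), splicing genes at 2 of 51 (3.92%, 1.08 to 13.2), replication-dependent histone genes at 0 of 67 (Wilson upper bound 5.42%) and the housekeeping list, with Actb and Gapdh, at 0 of 11. All 11 housekeeping promoters, 77 of the 80 and 63 of the 67 had a region of the list. Hox genes had none at 39 promoters, of which 12 had any region.

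**Figure D5:**
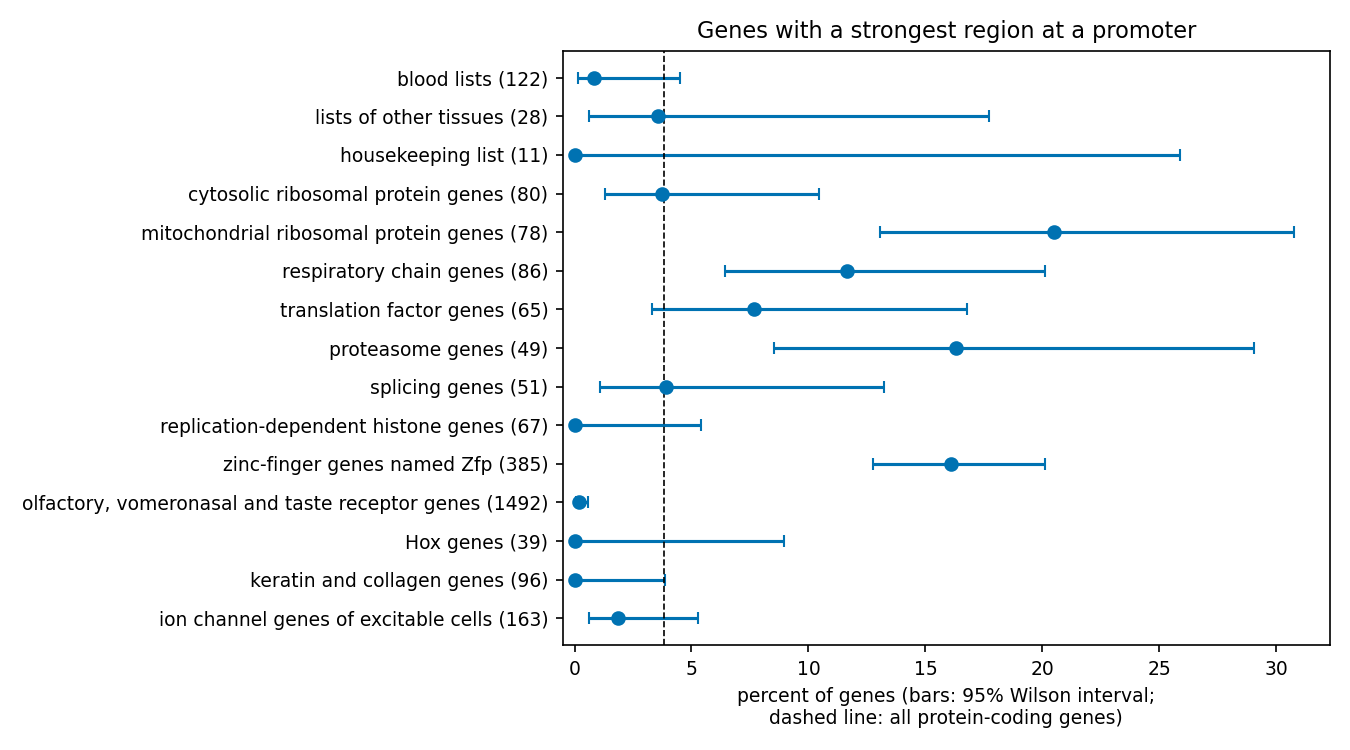
Percent of the genes of each list or group (number in brackets) with a strongest region within 1 kb of a start (horizontal axis), with 95% Wilson intervals; the dashed line is the 3.82% of all protein-coding genes. Mitochondrial ribosomal protein, proteasome and Zfp genes lie to the right of it, and the blood lists lie to the left at 0.820%.

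Blood genes were nearly absent from the strongest promoters. Over 10 lists with 122 genes, from stem cell regulators to B, T and NK cell genes, 74 (60.7%) had a region of the list at a promoter but 1 (0.820%, 0.145 to 4.50) had one of the 2000. That interval includes the 3.82% of all genes. That gene was Klrd1, which encodes CD94, a receptor subunit of NK cells, at rank 1020 with 14.4 in replicate 1 and 16.2 in replicate 2. None of the 18 stem and progenitor regulators had one (Wilson upper bound 17.6%), although 17 of the 18 had a region. Over regions, a blood-list gene was nearest for 1 of 717 strong promoter regions (0.140%, Wilson 0.0246 to 0.786), against 0.590% at like width. The difference was -0.450 points (-0.765 to -0.136), but it rests on 1 region, and the Wilson interval includes 0.590%. These lists were set with earlier results of these data known.

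By gene, 5 of 122 blood-list genes (4.10%) had a distal strongest region within 100 kb, near the 4.51% of all genes. By region the share was lower. Within 100 kb of blood-list genes lay 471 distal regions, of which 5 (1.06%) were among the 2000, against 987 of 43946 (2.25%) for all genes. At like width the difference in the share of distal regions nearest to a blood gene was -0.615 points (-1.07 to -0.157). It rests on 5 of 987 regions (0.507%, Wilson 0.217 to 1.18), and the Wilson interval includes the 1.12% at like width. The strongest of the 5 was in an intron of Mrc1, the mannose receptor of macrophages, at rank 95. Its signal was 18.2 in replicate 1 and 19.7 in replicate 2. The others were near Cd28 (rank 547), a T cell co-receptor, Csf2ra (rank 648), a GM-CSF receptor subunit, Marco (rank 1353), a scavenger receptor of macrophages, and Prg2 (rank 1742), the eosinophil major basic protein. Stem and progenitor regulators had 181 distal regions and none among the 2000. In the lists of other tissues Snap25 had one at its promoter (1 of 28 genes) and Apob, an apolipoprotein of liver and gut, a distal one at rank 1479.

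Strong regions were spread over the genome with a few dense stretches. The share of a chromosome's regions that were among the 2000 ranged from 2.44% on chromosome 19 to 3.86% on chromosome 3. When regions within 100 kb of each other were chained, 1471 stood alone and 196 pairs formed. The largest chain held 9 regions over 445407 bp (chr13:67399237-67844643), with a Zfp gene nearest for 8 of them and 7 at promoters, among them Zfp738 and Zfp493, and no near-identical copy. The next held 8 over 445813 bp (chr5:109690496-110136308), and 5 of the 9 chains of 4 lay on chromosome 13 or 17.

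Most genes had 1 strong region nearest to them, 1513 of the 1606 with any, and 89 had 2. Pde4d, which encodes a cAMP phosphodiesterase and spans a long stretch of chromosome 13, had 4, at ranks 57, 406, 1328 and 1898 with signals from 16.3 to 23.2, and none at a promoter. Ank2, an ankyrin of the membrane skeleton, Gm15446 and Dnah6, an axonemal dynein, had 3 each. Among genes with 2, Bdnf, a neurotrophic factor, had distal regions at ranks 64 and 383. The number of all regions of the list nearest to each of these genes is not given here. Whether their strong regions exceed the share for all regions was therefore not tested.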

How the data were processed

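ATAC-seq of 2 libraries of common myeloid progenitors was used, through 7 deposited peak lists on mm10. Per the deposited notes beside the files, a replicate's lists came from its own alignments and the series lists from both. Each peak has a signal as deposited by the authors, whose scale is not stated, and a −log10 p as deposited by the authors. The aligner, the peak caller, how reads with several placements were handled and whether reads were shifted for the transposase is each not given in the sources used here. The lists hold no reads, so depth is unknown, and intervals (95% Wilson, or binomial for differences) cover counting error only.

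Peaks overlapping by at least 1 bp were merged. Regions were ranked by signal and set against GENCODE M21 and the RefSeq sequence of GRCm38.p6. Promoter regions had a summit within 1 kb of a protein-coding start and all others were distal. Matches to the mitochondrial chromosome were sought with blastn 2.17.0 and copies with minimap2 2.31, for which 99.28% of regions aligned to their own place. Motifs were whole-consensus matches within 50 bp of the summit on either strand. Shares of other regions were standardised to the members' widths in 10 classes. On simulated data with no true difference, 2000 regions of 65789 gave a mean raw difference of 6.69 points and a standardised one of -0.061; with 10 points added, the standardised mean was 10.16. Each setting had 100 draws, and 97% of the intervals held the true value in both. The simulated feature depended on width and the added points only and was drawn for each region separately. Simulated members were drawn in proportion to width. Features that cluster along the genome were not simulated, so the 97% does not extend to them.

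The members, lists and motifs were chosen with earlier results of these data known. Of 166 list symbols 161 were found. Genes named are the nearest of the 10 strongest promoter and 10 strongest distal regions without a match or copy, members of the 13 lists and 12 symbol groups, genes with the most members, the 5 strongest matches and the 5 strongest copies, and the regions at the edge of the rank. One of these genes is not reported here. Those with identical stretches or the REST element, the chains of regions, and Zfp938 were named after their values were seen. Both libraries are 1 group with 1 donor label, so no test between groups was made. Python 3.11.15, NumPy 2.4.6, pandas 2.3.3, SciPy 1.17.1 and matplotlib 3.10.9 were used.

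The alternatives were other lists, 1000 or 5000 regions, ranking by −log10 p, either replicate's own list, other promoter and motif windows, width classes, and match and copy thresholds. Regions on other chromosomes were not analysed here.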

Additional observations from a re-analysis of the deposited data

How the results depend on the processing

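Of 108 alternative values, 74 stayed within the spread set for their result and 34 did not. A change of direction was defined only for values that are differences of shares, and 0 of those changed direction. The cause was not tested for any of the 108. With 1000 regions the copy share was 5.1%, the median width 663 bp, the promoter share 31.2%, the promoter, CpG-rich and CTCF differences 4.247, 5.943 and 0.8095 points (the last with an interval of -0.9926 to 2.612), and the blood-list share 0%. With 5000 regions the mitochondrial share was 0.24% and the copy share 2.38%. Ranking by −log10 p gave a copy share of 2.25%, a median width of 952.5 bp and a promoter share of 83.65%. Promoter windows of 500 and 2500 bp gave promoter differences of 10.01 and 4.523 points, and the 500 bp window left 0% of the genes of other tissues, since the Snap25 summit lies further from its start. Without width classes the promoter, CpG-rich and CTCF differences were 14.54, 15.12 and 0.4432 points. Copies at 90% identity over 50% of the region gave 5.7% and at 98% over 80% gave 2.3%. Shares among the strongest of replicate 1 were 81.5% with 1000 of each and 85.76% with 5000, and of replicate 2 70.8% and 79.54%.

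From either replicate's own list alone, results ranged as follows: copy share 2.65 to 3.4%, median width 639.5 to 648 bp, promoter share 40.75 to 47%, promoter difference 8.278 to 12.5 points, CpG-rich difference 8.905 to 11.76 points, CTCF difference 1.193 to 1.224 points, CCAAT difference 18.26 to 22.06 points and blood-list share 0 to 0.8197%. Each such list still holds only 1 library, so these have no replicate check. Exact stretches of at least 100 bp (6.05%), a looser CTCF core (5.641 points), the archived list, in whose 2000 strongest 68.05% of the members were found, and the CCAAT result were chosen after seeing the data. No paired analysis was possible because there is 1 group and no result comes from a test. The unknown depth limits which lower-ranked regions were called, and reads with several placements limit the values of copied regions.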

Other observations

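Few olfactory, vomeronasal and taste receptor genes had a distal strongest region nearby. The distal regions nearest to them were still among the 2000 more often than those of all genes. By gene, 19 of 1492 (1.27%) had a distal strongest region within 100 kb, against 4.51% of all genes. Olfactory and vomeronasal receptors belong to sensory neurons. Of the 1492 genes of the whole group, 29 (1.94%) had a region of the list at a promoter. Of the 233 distal regions nearest to them within 100 kb, 20 (8.58%) were among the strongest, against 2.25% for all genes. They made up 2.03% of strong distal regions within 100 kb of a gene against 0.418% of others of like width, a difference of 1.61 points (0.727 to 2.49), and 1.29 points (0.463 to 2.11) without copies. The genes included Olfr31 (rank 54), Olfr94 (rank 118) and Vmn2r21 (rank 297). Of the 20 regions, 4 had a near-identical copy, and the same 4 held an identical stretch of at least 100 bp elsewhere. Over all 1283 distal members, 3.82% had a near-identical copy, against 1.35% of other distal regions of like width. An identical stretch was held by 6.05% of all members.

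At promoters, 3 of the 1492 had a strongest region (0.201%, against 3.82% of all genes): Olfr646 (rank 243), Olfr658 (rank 287) and Olfr1509 (rank 632). Among ion channel genes of excitable cells, 3 of 163 did (1.84%), namely Cacng2 (rank 183), Cacng3 and Scn2a (rank 1142). Of these channel genes 54 (33.1%) had any region of the list at a promoter, against 62% of all genes.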
